A study of Mus musculus with 6 samples.

Results

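The lipid droplet coat and fusion genes Plin2, Plin3, Plin4, Plin5, Cidea, Cideb, Cidec, Fitm1, Fitm2 and G0s2 were followed in the liver of mice whose hepatocytes overexpress Fra-1. They were chosen by name, with earlier results of these data known, as the perilipins beyond Plin1, the CIDE family, the FIT proteins and G0s2. Plin1, which was not detected on these arrays, is not a member. Every probe whose accession carries one of the member symbols was kept apart. This gave 10 genes of 19752 with a symbol on the array, and 12 probes of 55681. Cideb and Cidec have 2 probes each and the other 8 genes have 1. The first group is Fra-1hep, mice on the C57BL/6J strain that overexpress the AP-1 transcription factor subunit Fra-1 in hepatocytes, and the second is wild-type C57BL/6J. Both were 26 to 28 weeks old and untreated. On 5 arrays, Cy5-labelled RNA of 1 Fra-1hep mouse met RNA pooled from 5 chow-fed wild-type mice in Cy3. A further, dye-swapped array carried pooled Fra-1hep RNA in Cy3 and the same kind of wild-type pool in Cy5. The promoter that drives the transgene, the diet and sex of the Fra-1hep mice and the number of mice in their pool were not stated in the sources used here. The wild-type group is 1 pooled sample, so its spread between animals is not measured.

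A lipid droplet is a core of triglyceride and cholesterol ester under a phospholipid monolayer. Triglyceride made in the endoplasmic reticulum buds into droplets with the help of the FIT proteins, perilipins coat the surface and limit access of lipases, and CIDE proteins at droplet contacts let lipid pass from smaller to larger droplets. Fatty liver is known for high levels of several of these proteins, and Cidea, Cidec, Plin2 and Plin4 are among the genes that PPARγ can activate.

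All 12 probes were bright enough to be tested, that of Cidea only through its wild-type signal. Of these, 3 were higher in Fra-1hep liver, 8 were lower and 1, for Plin5, was not called. A probe was called where limma's adjusted p (Benjamini-Hochberg over 30105 tested probes) was under 0.05. Over all tested probes 5.52% were called higher, 6.05% lower and 11.6% in either direction. The higher probes were both Cidec probes and Plin3, and the lower ones were those of Plin2, Plin4, Cidea, Cideb, Fitm1, Fitm2 and G0s2. The median log2 ratio of Fra-1hep over wild type was -0.33 over the 12 probes and 0.01 over all tested probes, and the median absolute log2 ratio was 0.91 against 0.09. On 11 of the 12 probes all 6 arrays lay on the side of the estimate, as was so for 25.5% of all probes compared in this way. Normalised signals of the Fra-1hep and wild-type channels did not overlap over the 6 arrays for 9 of the 12 probes, against 11.1% of all probes. Because the members were chosen with earlier results of these data known, these comparisons describe them and are no test.

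**Figure D1:**
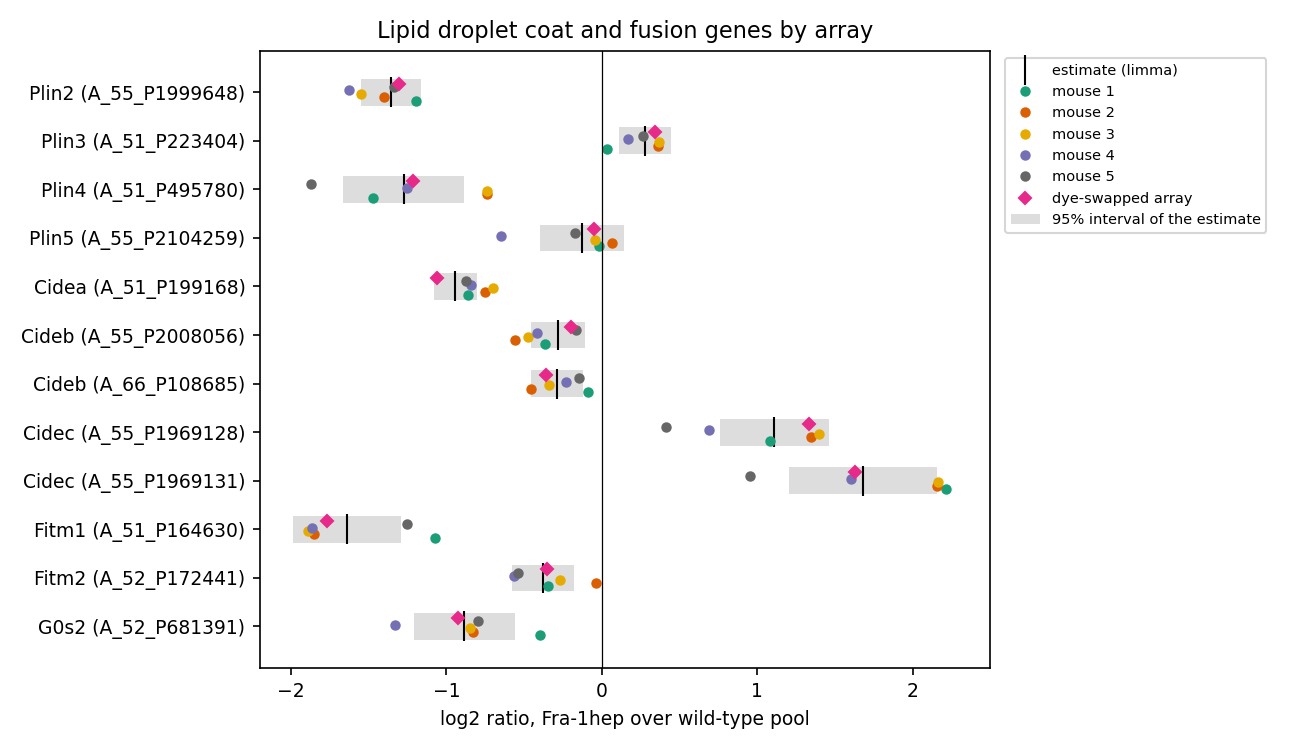
Log2 ratio of Fra-1hep over the wild-type pool for each probe of the lipid droplet coat and fusion genes (horizontal axis), with a point for each of the 5 mouse arrays, a diamond for the dye-swapped array, a tick for the limma estimate and a grey bar for its 95% confidence interval. Both Cidec probes lie right of 0 on every array, those of Plin2, Plin4, Cidea, Fitm1 and G0s2 lie left of 0 on every array, and the points of Plin5 spread around 0 with mouse 4 at -0.65.

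Arrays and labels were checked first. Fra-1hep RNA gave a signal well above background for 48.5 to 58.9% of all probes, wild-type RNA for 44.99 to 50.7%, and saturated spots numbered 0. Fosl1, the gene for Fra-1, has a single probe, which was bright enough on 0 of 6 arrays for either RNA, with log2 ratios from -0.18 to 0.07. It checks no label, and which part of the transcript it reads is unknown here. The arrays of mice 2 and 3 differed by 1.11 times the noise between replicate spots, while the 9 other pairs of mouse arrays differed by 1.69 to 1.99 times. Mice 2 and 3 were therefore counted as 1 sample, which leaves n = 4 Fra-1hep samples for the SD and SE values below, and the number of arrays limits their precision. In liver tissue, fewer cells of a type and less RNA per cell cannot be told apart.

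Promoter sequence is shown for the members in which a letter match to a motif was found, so that the direction of each gene can be read beside it. RefSeq start sites (GRCm38.p6) matched 9 of the 10 genes, with 11 start sites, and the 250 bases before each start were searched on both strands for the AP-1 motif TGANTCA, the cyclic AMP response element TGACGTCA and the nuclear receptor half-site AGGTCA, which do not overlap one another in these matches. The AP-1 motif was found before 1 of 2 starts of Cidec (chr6:113434765-113435014, minus strand) and 1 of 2 starts of Plin5 (chr17:56117549-56117798, minus strand). The half-site was found before the same Plin5 start and before that of Plin2 (chr4:86670060-86670309, minus strand), there on the opposite strand. Matches are in capitals, each sequence runs from 5′ to 3′ on the strand of the gene, and its last base lies next to the start:
Cidec: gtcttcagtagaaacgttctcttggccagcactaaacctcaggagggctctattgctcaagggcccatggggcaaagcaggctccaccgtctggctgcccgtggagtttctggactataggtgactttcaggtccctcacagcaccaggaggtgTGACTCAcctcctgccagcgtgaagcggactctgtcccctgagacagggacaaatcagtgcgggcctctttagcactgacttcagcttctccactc
Plin5: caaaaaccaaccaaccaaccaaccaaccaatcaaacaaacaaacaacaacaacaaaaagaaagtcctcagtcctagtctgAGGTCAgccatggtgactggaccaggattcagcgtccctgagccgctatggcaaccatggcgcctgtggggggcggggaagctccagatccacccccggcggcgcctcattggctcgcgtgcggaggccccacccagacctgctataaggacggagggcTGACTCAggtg
Plin2: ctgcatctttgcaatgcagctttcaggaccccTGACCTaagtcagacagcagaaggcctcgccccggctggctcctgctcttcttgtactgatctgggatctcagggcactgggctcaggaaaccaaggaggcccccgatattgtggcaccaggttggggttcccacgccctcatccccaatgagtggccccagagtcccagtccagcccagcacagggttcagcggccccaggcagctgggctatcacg
TGACTCA begins 96 bases before the Cidec start and 11 bases before the Plin5 start, AGGTCA begins 170 bases before the Plin5 start, and TGACCT, its reverse complement, begins 218 bases before the Plin2 start. Among 32841 promoters of the same length, 6.75% hold the AP-1 motif, 14% the half-site and 1.55% the cyclic AMP response element. These are letter matches only. The Cidec gene was higher, Plin2 was lower and Plin5 was not called. Among the 9 searched genes, no motif was found before more than 1 called gene. Whether genes with the same motif share a direction therefore cannot be read from these members.

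Among the perilipins, Plin2 and Plin4 were lower in Fra-1hep liver, Plin3 was slightly higher and Plin5 did not pass the test. Plin2 (NM_007408), the main droplet coat protein of the hepatocyte, had log2 ratios of -1.19, -1.40, -1.55, -1.63 and -1.33 in mice 1 to 5 and -1.31 on the dye-swapped array. All 6 arrays lay below 0, and the SD between the samples, 0.19, was above that of 81.5% of the tested probes. Plin2 was 2.56-fold lower (95% confidence interval 2.24 to 2.93; log2 -1.36, SE 0.08, n = 4, limma adjusted p = 9.72e-05). Its normalised log2 signal was 12.90 to 13.42 (median 13.13) for Fra-1hep and 14.46 to 14.62 (median 14.53) for wild type, so the channels lay apart by more than either one's range.

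Plin4 (NM_020568), a coat protein best known from adipose tissue, had log2 ratios of -1.47, -0.74, -0.74, -1.25 and -1.87 in mice 1 to 5 and -1.22 on the dye-swapped array. Mouse 5 was lowest, and mice 2 and 3 were highest. The estimate was a 2.42-fold lower level (1.85 to 3.17; log2 -1.28, SE 0.17, limma adjusted p = 0.00276), with an SD of 0.47 between the samples, above that of 98.6% of the tested probes. Plin4 reached an adjusted p of 0.0507 on the scanner software's processed signals, just past the threshold, at a log2 ratio of similar size.

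Plin5 (NM_001077348), which ties droplets to mitochondria in tissues that burn fat, had log2 ratios of -0.02, 0.06, -0.04, -0.65 and -0.17 in mice 1 to 5 and -0.05 on the dye-swapped array. Mouse 4 stood below the other arrays, which lay close to 0. The estimate was -0.13 (SE 0.12, 95% confidence interval -0.40 to 0.14, limma adjusted p = 0.556), and with median centring it was 0.02. Plin4 and Plin5 are neighbouring genes on chromosome 17 in the RefSeq list. Their ratios on the same 6 arrays lay apart, with Plin4 below Plin5 in every one.

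Plin3 (NM_025836), a cytosolic protein that coats nascent droplets, had log2 ratios of 0.04, 0.36, 0.37, 0.17 and 0.26 in mice 1 to 5 and 0.34 on the dye-swapped array. Every array was above 0, with mouse 1 next to it. The estimate was 1.21-fold higher (1.08 to 1.36; log2 0.28, SE 0.07, limma adjusted p = 0.0480), and the signals of the channels overlapped. Plin3 was called in 8 of 17 alternative analyses. Its limma adjusted p was 0.144 on the processed signals, 0.0838 with a normexp offset of 16 and 0.0853 without mice 2 and 3. Without the dye-swapped array, where genotype and dye cannot be told apart, its adjusted p was 0.0514. Without mouse 2, 3, 4 or 5 alone it was 0.0519, 0.0529, 0.0758 and 0.0826.

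**Figure D2:**
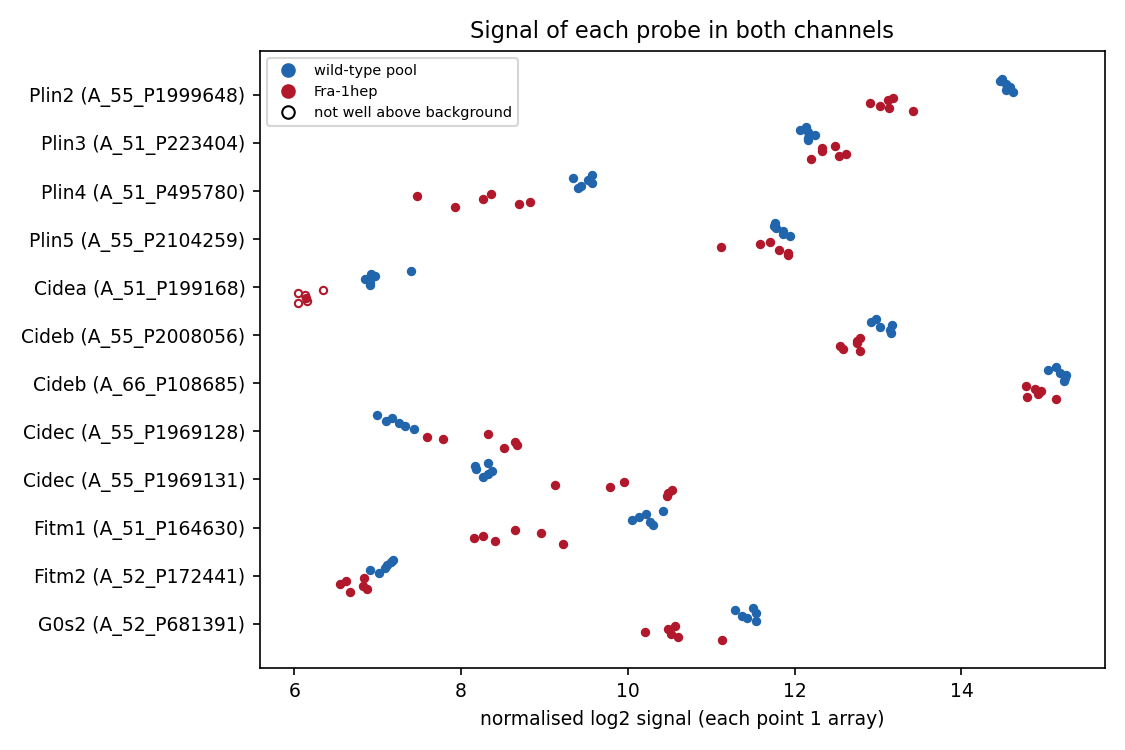
Normalised log2 signal of each probe on each array (horizontal axis), with the wild-type pool in blue and Fra-1hep in red, and open circles for signals not well above background; points are spread vertically to separate them. Red and blue do not overlap for 9 of the 12 probes, and they overlap for Plin3, Plin5 and the Cideb probe A_66_P108685; signals of different probes are not comparable with each other.

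The 3 CIDE genes moved in different directions: Cidec was higher, while Cidea and Cideb were lower. Cidec (NM_178373), which enlarges droplets by fusion in adipose tissue and in the fatty liver, has 2 probes. On the probe with the brighter signal (A_55_P1969131) its log2 ratios were 2.21, 2.16, 2.16, 1.60 and 0.95 in mice 1 to 5 and 1.63 on the dye-swapped array. Mouse 5 was lowest and mouse 1 highest, and none came near 0. The estimate was 3.20-fold higher (2.30 to 4.46; log2 1.68, SE 0.21, n = 4, limma adjusted p = 0.00198).

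The dimmer Cidec probe (A_55_P1969128) gave 1.08, 1.34, 1.40, 0.69 and 0.41 in mice 1 to 5 and 1.33 on the dye-swapped array. Mouse 5 was again lowest. Its estimate was 2.16-fold higher (1.69 to 2.76; log2 1.11, SE 0.15, limma adjusted p = 0.00333), and it was 1.36 on the log2 scale with the smaller offset and 1.68 on the processed signals. The brighter probe exceeded the dimmer one by 1.13, 0.81, 0.76, 0.91 and 0.54 in mice 1 to 5 and by 0.29 on the dye-swapped array, so both agreed in direction but not in size. The SD of the brighter probe, 0.59, was above that of 99.2% of the tested probes. Fra-1hep signals were 9.13 to 10.53 (median 10.21) on this probe and wild-type signals 8.17 to 8.37 (median 8.29), so the wide spread was in the Fra-1hep channel.

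Cidea (NM_007702), a droplet fusion protein abundant in brown fat and made by the fatty liver, had log2 ratios of -0.86, -0.75, -0.70, -0.84 and -0.87 in mice 1 to 5 and -1.06 on the dye-swapped array. Every array was below 0; the SD between the samples, 0.07, was taken with the Fra-1hep signal near background and does not measure how alike the mice were. The estimate was 1.92-fold lower (1.75 to 2.12; log2 -0.94, SE 0.06, limma adjusted p = 0.000115). The Fra-1hep signal was well above background on 1 of 6 arrays, that of mouse 3, and the wild-type signal on 6 of 6. The size of this ratio therefore rests on how background is handled. The log2 ratio was -1.48 with an offset of 16 and -2.86 on the processed signals, lower in each. The probe passed the filter only through the wild-type channel, which favours a call as lower.

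Cideb (NM_009894), which the hepatocyte uses to load lipid on very low density lipoprotein, also has 2 probes. A_55_P2008056 gave log2 ratios of -0.36, -0.56, -0.47, -0.42 and -0.17 in mice 1 to 5 and -0.20 on the dye-swapped array. A_66_P108685 gave -0.09, -0.45, -0.34, -0.23 and -0.15 in mice 1 to 5 and -0.36 on the dye-swapped array. Each array was below 0 on both probes, by a small amount. The estimates were 1.22-fold lower on each (log2 -0.28, SE 0.08, limma adjusted p = 0.0476, and log2 -0.29, SE 0.07, adjusted p = 0.0383). Each probe was called in 9 of 17 alternative analyses; under median centring the adjusted p was 0.287 and 0.308, at log2 ratios of -0.13 and -0.12. On the processed signals it was 0.130 and 0.138, and with the smaller offset 0.0878 and 0.0825. The first probe missed the threshold without mouse 1, 3 or 4 (0.0743, 0.0570 and 0.0867), and the second without mouse 3, 4 or 5 (0.0503, 0.0705 and 0.0534). Without mice 2 and 3 together the values were 0.0878 and 0.0606.

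The FIT proteins span the endoplasmic reticulum membrane, bind triglyceride and promote the budding of droplets. Fitm1 (NM_026808), known mainly from skeletal muscle and heart, was lower in Fra-1hep liver on every array. Its log2 ratios were -1.08, -1.85, -1.89, -1.87 and -1.25 in mice 1 to 5 and -1.77 on the dye-swapped array. Mice 1 and 5 were the least reduced. Fitm1 was 3.12-fold lower (2.45 to 3.97; log2 -1.64, SE 0.15, limma adjusted p = 0.000562), with Fra-1hep signals of 8.15 to 9.23 (median 8.53) and wild-type signals of 10.04 to 10.42 (median 10.24).

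Fitm2 (NM_173397), the widely expressed FIT protein, had log2 ratios of -0.35, -0.04, -0.27, -0.56 and -0.54 in mice 1 to 5 and -0.35 on the dye-swapped array. Mouse 2 was near 0 and mice 4 and 5 were lowest. The estimate was 1.30-fold lower (1.13 to 1.49; log2 -0.38, SE 0.09, limma adjusted p = 0.0264). It was larger with the smaller offset (log2 -0.54) and on the processed signals (log2 -0.69, adjusted p = 0.05001), and without mouse 3 the adjusted p was 0.0538.

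G0s2 (NM_008059), an inhibitor of the triglyceride lipase encoded by Pnpla2, had log2 ratios of -0.40, -0.83, -0.85, -1.33 and -0.80 in mice 1 to 5 and -0.93 on the dye-swapped array. Mouse 1 was the least and mouse 4 the most reduced. The estimate was 1.85-fold lower (1.47 to 2.31; log2 -0.88, SE 0.14, limma adjusted p = 0.00624), and the adjusted p was 0.0684 on the processed signals. Its wild-type signals, 11.28 to 11.54 (median 11.46), lay above all Fra-1hep signals, 10.20 to 11.13 (median 10.55).

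The dye-swapped array and the mice gave alike directions on all 12 probes. The mean of the 4 mouse samples minus the value of the dye-swapped array ran from -0.44 for the dimmer Cidec probe to 0.25 for Fitm1. The dye term was called in limma at an adjusted p under 0.05 for 0 of the 12 probes, against 0.688% of all tested probes. At so low a share, 0 of 12 says little about the members. At an unadjusted p under 0.05 the count was also 0 of 12, and no share over all tested probes was taken at that level. In the fit, the dye-swapped array weighs as much as all mouse arrays together, and its own error is not estimated. Mice lay on 3 slides, and the mean over the mice of each slide in turn was 2.19, 1.88 and 0.95 for the brighter Cidec probe, -1.30, -1.59 and -1.33 for Plin2, and -1.46, -1.88 and -1.25 for Fitm1. Plin4 gave -1.11, -0.998 and -1.87 in the same order. The third slide held only mouse 5, so slide and mouse cannot be told apart there.

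**Figure D3:**
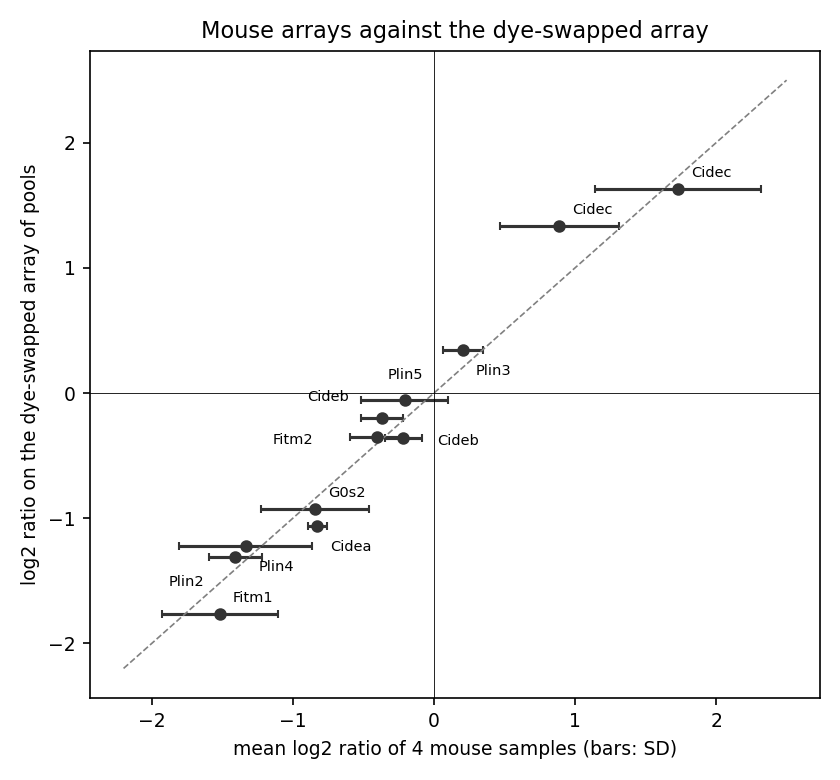
Mean log2 ratio of the 4 Fra-1hep mouse samples for each probe (horizontal axis, bars show the SD) against the log2 ratio on the dye-swapped array of pools, turned to the same direction (vertical axis); the dashed line marks equal values. All 12 points lie in the lower left or upper right quadrant, and the dimmer Cidec probe lies 0.44 above the line.

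Genes around the droplet were read from 5 lists, each gene by its brightest tested probe. Over the 13953 genes with a tested probe, 7.83% were called higher and 8.23% lower. These shares hold for the adjusted p only. No share over all genes was taken at an unadjusted p under 0.05. List counts at that level therefore have no background and cannot be set against these shares. Of 10 lipases and their regulators, 2 were higher and 2 lower. Pnpla2, the lipase that starts triglyceride breakdown and is the target of G0s2, was higher by 0.28 on the log2 scale (SE 0.07, limma adjusted p = 0.0339). Lipa, the lysosomal acid lipase, was higher by 0.28 (SE 0.07, adjusted p = 0.0397). Mgll, which cleaves monoglyceride, had a log2 ratio of -0.54 (SE 0.12, adjusted p = 0.0208), and Ces1d, a hepatic carboxylesterase, one of -0.43 (SE 0.09, adjusted p = 0.0172). On the processed signals 0 of these lipases were called in either direction by limma, with adjusted p values from 0.0977 to 0.113 for the named 4.

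Of 9 tested droplet formation and other droplet proteins, 0 were called higher and 2 lower in limma; at an unadjusted p under 0.05 these counts were 2 and 2. Hsd17b13, a droplet enzyme of the hepatocyte, had a log2 ratio of -0.51 (SE 0.07, limma adjusted p = 0.00352). Its dimmer probe, for another transcript, gave 0.02 (limma adjusted p = 0.896). The log2 signal of that probe was only 6.56 to 6.97 for Fra-1hep and 6.63 to 6.90 for wild type. The offset pulls ratios of such dim probes towards 0, so this value does not show an unchanged transcript. Bscl2, encoding seipin, had -0.32 (SE 0.07, adjusted p = 0.0275); it missed the threshold under median centring (0.122), on the processed signals (0.0734), with the smaller offset (0.0520) and without mice 2 and 3 (0.0594). Plin1, the coat protein of the fat cell, was detected on 0 of 6 arrays for either RNA and was not tested.

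Of 13 triglyceride assembly enzymes, 2 were called higher and 0 lower in limma, and 4 and 0 at an unadjusted p under 0.05. Mogat2, a monoacylglycerol acyltransferase best known from the intestine, had log2 ratios of 2.60, 1.81, 2.17, 2.76 and 2.15 in mice 1 to 5 and 2.49 on the dye-swapped array. It was high on each array, and the estimate was 5.40-fold (log2 2.43, SE 0.14, limma adjusted p = 6.69e-05). Lpin3, a phosphatidate phosphatase, was 2.10-fold higher (log2 1.07, SE 0.08, adjusted p = 0.000260). The diacylglycerol acyltransferases, which make the last step to triglyceride, had log2 ratios of 0.04 (Dgat1, adjusted p = 0.751) and 0.02 (Dgat2, adjusted p = 0.877).

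Of 11 transcriptional regulators, 1 was called lower and 0 higher in limma, and 5 and 1 at an unadjusted p under 0.05. Pparg, the nuclear receptor PPARγ that drives droplet genes, had log2 ratios of -1.66, -1.67, -1.70, -1.25 and -0.87 in mice 1 to 5 and -1.48 on the dye-swapped array. Mouse 5 was the least reduced. Pparg was 2.69-fold lower (log2 -1.43, SE 0.14, limma adjusted p = 0.000802). Of 7 genes for the lipidation of very low density lipoprotein, 0 passed the test in limma in either direction, also at an unadjusted p under 0.05, and Mttp, the lipid transfer protein of that path, was at -0.14 (adjusted p = 0.323).

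**Figure D4:**
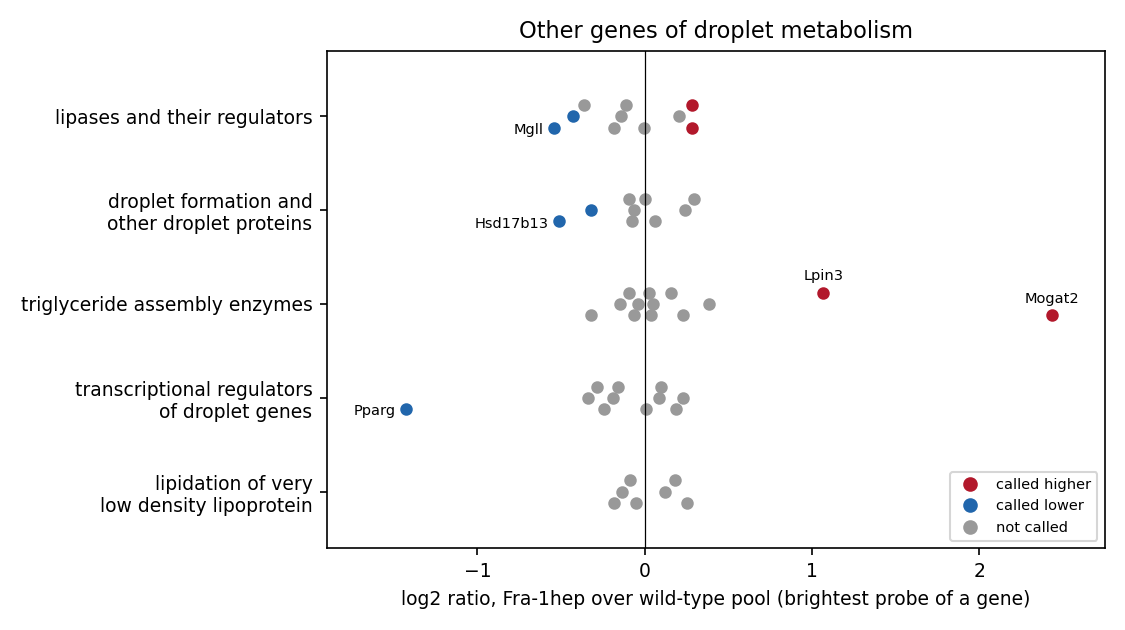
Log2 ratio of Fra-1hep over wild type for each tested gene of the 5 lists around the droplet (1 point per gene, brightest probe), in red where called higher, in blue where called lower and in grey where not called; height within a list only separates points. Mogat2 lies at 2.43, Lpin3 at 1.07 and Pparg at -1.43, and the other genes lie between -0.54 and 0.39.

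Markers of other cells moved with the genotype, and their part in the values above was not tested. Of 10 neutrophil markers 9 were higher (median log2 ratio 2.29). Among them, Cxcr2 passed the filter only through its Fra-1hep signal. The summed normalised signal of the 10 was 37754 to 88584 for Fra-1hep and 24583 to 30134 for wild type. Csf3r, the 1 marker not called (log2 ratio 0.09), held most of the wild-type sum. Its wild-type log2 signal was 14.36 to 14.69, and that of the next brightest, S100a9, was 10.68 to 10.84. The sums therefore understate the rise of the 9 called markers. Of 10 macrophage markers 9 were lower (median -0.59; summed signal 43428 to 71696 against 85565 to 98000), and of 10 sinusoidal endothelial markers 8 were lower (median -0.47; 11896 to 18354 against 22933 to 24212). Of 10 stellate markers 1 was lower and 0 were higher (median -0.07, summed signal 22638 to 25878 against 19596 to 22241). Dcn, which was not called (log2 ratio 0.23, limma adjusted p = 0.0594), held most of the stellate sum in both channels. Hepatocyte markers, which identify the tissue, were well above background on all arrays, with 1 of 10 higher and 2 lower (705705 to 979363 against 699116 to 1004090).

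Several members are also fat cell genes, so adipocyte markers matter here. Adipoq, Lep, Retn, Plin1 and Slc36a2, which define the fat cell, were detected on 0 of 6 arrays in Fra-1hep RNA and on at most 1 in wild-type RNA, and none was tested. The 3 tested adipocyte markers, Cfd, Car3 and Adrb3, were all lower. Cfd was detected on 0 of 6 arrays in Fra-1hep RNA, so it passed the filter only through its wild-type signal. The summed signal of the 8 adipocyte markers was 21134 to 41201 against 61701 to 76816, but Car3, which the liver also makes, held 97.1 to 98.6% of it in Fra-1hep and 97.5 to 98.3% in wild type. Without Car3 the sum of the other 7 was 514 to 603 against 1276 to 1536.

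The genes closest to the members with the highest and the lowest estimate at the offset of 50 were found by the root mean square difference of log2 ratios over the 6 arrays, among 12820 genes bright on all arrays. Nearest to the brighter Cidec probe were Cdhr2 (difference 0.228), Enho (0.254), Cdc42ep5 (0.278), Tmprss2 (0.284) and Itih5 (0.291), with estimates from 1.58 to 1.82 on the log2 scale. Nearest to Fitm1 were Mup21 (0.210), Cyp4a32 (0.223), Vnn1 (0.225), Olig1 (0.231) and Pax2 (0.240), with estimates from -1.83 to -1.46. Mup21 and Cyp4a32 belong to families of near-identical genes, so their probes may read relatives as well.

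Across 17 alternative analyses, 5 member probes were called in every one: those of Plin2, Cidea and Fitm1 and both Cidec probes. The Cidea probe passed the filter only through its wild-type signal, so its calls carry less weight. Mogat2, Lpin3, Pparg and the brighter Hsd17b13 probe were called in all 17 as well. Plin4, Fitm2 and G0s2 were called in 15 of 17 each.

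**Figure D5:**
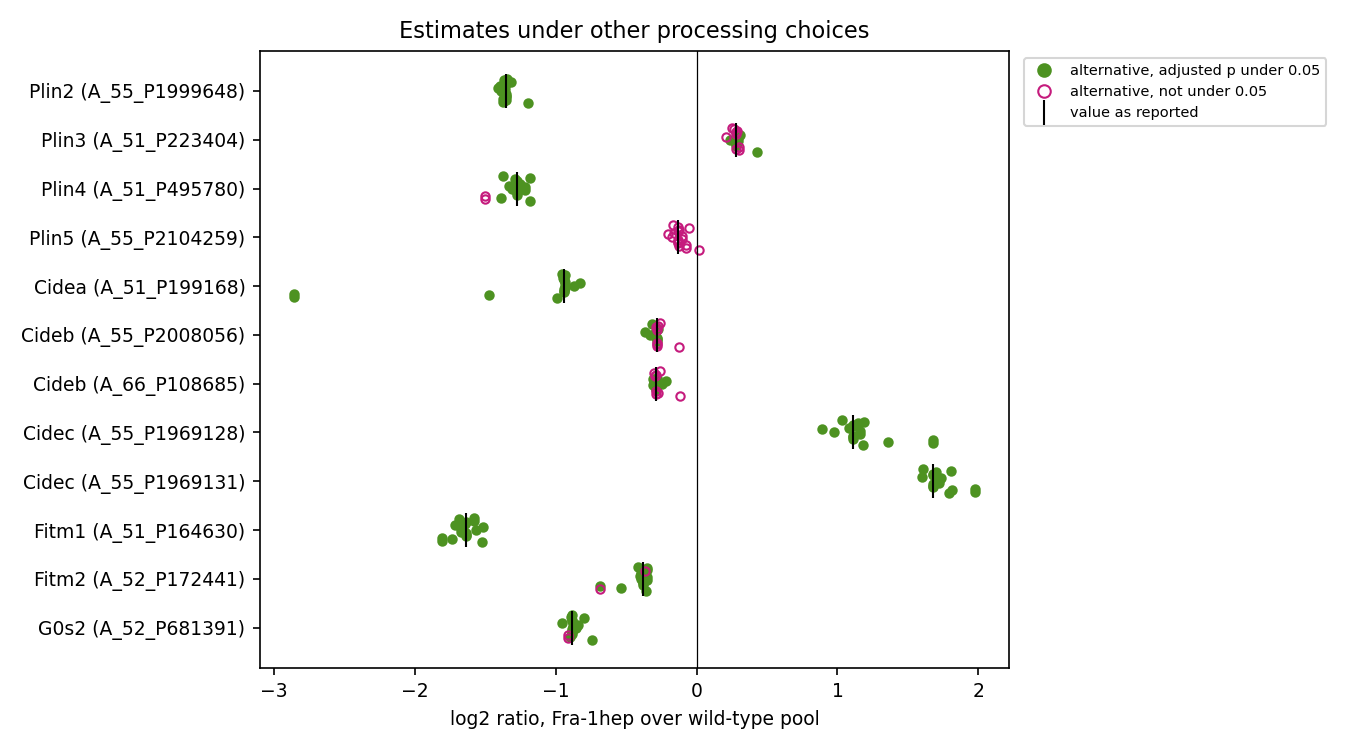
Log2 ratio of each member probe in the alternative analyses (points, filled where limma's adjusted p was under 0.05 and open where it was not) and in the analysis reported above (vertical tick). The points of Plin2, Cidea, Fitm1 and both Cidec probes are filled throughout, Cidea spreads from its reported -0.94 out to -2.86, and most open points belong to Plin3, Plin5 and Cideb.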

How the data were processed

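Per the labels' protocols, liver RNA with an integrity score above 7.8 was used and 100 ng was labelled. Images were read by the authors with Agilent Feature Extraction (version 10.7 in the submitters' processing notes and 10.7.3.1 in the headers). Per the file headers, the deposited files of each array hold median spot and background signals as intensity, not normalised. A further table deposited by the authors gives log2 ratios of processed signals, not centred (column medians from -0.18 to 0.06), whose direction was found by comparison with the scanner values (absolute correlation at least 0.99997). The design text speaks of 6 single mutant mice, while the labels give 5 and a dye-swapped array; the labels were followed.

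From the scanner files, background was corrected by normexp (offset 50, which pulls ratios of dim probes towards 0) and ratios by loess within arrays in limma 3.58.1 (R 4.3.3, data.table package, version 1.17.8). Control spots and outlier spots (190 to 301 per array) had weight 0, and replicate spots were averaged. Of 55681 probes, 26056 had 1 symbol through the RefSeq list. Probes were tested if above background in Fra-1hep on at least 3 of 5 mouse arrays or in wild type on at least 3 of 6. Per probe, lmFit and eBayes fitted genotype and a constant for dye, 2-sided, with 3 residual degrees of freedom and 5.15 prior ones. The fit was tested on simulated data. Alternatives covered normalisation, background, filter, variance model, dye term, slide and left-out arrays. Named are all members, the called genes of each list (at most 4) with Pparg and Plin1, and the 5 genes nearest to the highest and lowest member; Dgat1, Dgat2 and Mttp were named after their values were seen. Members and lists were chosen with earlier results of these data known. Markers came from textbook knowledge.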

Additional observations from a re-analysis of the deposited data

Results flagged for a closer look

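Enho, one of the genes nearest to the brighter Cidec probe, had 1 of its 4 Fra-1hep samples far from the others. That sample had a log2 ratio of 1.14 against an estimate of 1.82. The check was run on all member probes, the called list genes named above and the nearest genes, and only Enho was set apart. Chance sets apart about 1 in 20 such groups, so 1 among that many is not unusual.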

How the results depend on the processing

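Of the 12 member probes, only Plin5 changed direction, at 0.0189 with median centring (adjusted p = 0.941), and its ratio was not called in any analysis. On the processed signals 3 member probes were called lower and 1617 probes in all, with the authors' values 4 and 1624, against 8 and 3483 in the analysis reported. Without a dye term 5898 probes were called. With median centring 74.3% of calls were higher (2934 higher and 1016 lower), against 47.7% (1663 and 1820). Leaving out 1 array at a time gave 2913 to 7585 calls over all probes, the highest without the dye-swapped array. Without that array no dye term can be fitted, so genotype and dye cannot be told apart. Member probes called lower numbered 5 to 8 with 1 array left out, the fewest without mouse 3, and those called higher 2 to 3. Without mice 2 and 3 together, chosen after seeing the data, 2598 probes were called, with 2 members higher and 6 lower.

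Lipases called higher numbered 0 on the processed signals, in the authors' table, with offset 16 and without mice 2 and 3, and 0 to 3 with 1 array left out, the fewest without mouse 4 and the most without the dye-swapped array. Lipases called lower numbered 1 with median centring, 0 on the processed signals and in the authors' table, 4 without a dye term and 2 to 5 with 1 array left out. Droplet formation genes called higher numbered 2 with median centring, 1 without a dye term and 0 to 2 with 1 array left out, and those called lower 1 with median centring, processed signals, authors' table, offset 16 or without mice 2 and 3. Triglyceride enzymes gave 2 to 4 higher and 0 to 1 lower with 1 array left out. Regulators called higher numbered 1 with median centring or without a dye term and 0 to 3 with 1 array left out. Regulators called lower numbered 2 with an intensity trend, 3 with 5 separate mice or slide as a block, 4 without a dye term and 1 to 4 with 1 array left out. Lipoprotein lipidation genes called higher numbered 1 with median centring or without a dye term and 0 to 1 with 1 array left out. Most of these largest counts came without the dye-swapped array, where genotype and dye cannot be told apart. The cause of these counts was not tested. No paired analysis was possible because every mouse was set against the same wild-type pool and the dye-swapped array holds pools. The dim Fra-1hep signal limits the size given for Cidea, whose direction held in all 17 alternatives. Its probe passed the filter only through the wild-type signal.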
